A study of Homo sapiens with 6 samples.

Results

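The 10 genes described here encode proteins of the lysosome, the acidic compartment in which cells break down proteins, lipids and engulfed material. They were taken from the table of estimated counts by Ensembl gene ID, and all 10 were found among its 77134 rows. They comprise 6 cathepsins (Ctsb, Ctsd, Ctsl, Ctss, Ctsk and Ctsz), the asparaginyl protease legumain (Lgmn), both major glycoproteins of the lysosomal membrane (Lamp1 and Lamp2) and the transmembrane glycoprotein Gpnmb. All 10 passed the filter on low counts and were among the 12637 genes tested.

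Cathepsins are made as inactive precursors, carried to the lysosome mostly through mannose 6-phosphate tags, and cut to their active form in the acidic lumen, in part by legumain and by each other. The membrane glycoproteins line the inner face of the lysosomal membrane and shield it from these enzymes. Macrophages, which digest what they engulf, are rich in lysosomes. Several of the genes, such as Ctsb and Ctsl, are also used by fibroblasts, endothelial cells and most other cells. Others, such as Ctss and Ctsk, are best known from fewer cell types. None of the 10 is taken here to mark macrophages alone.

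Total RNA was taken from subcutaneous tumours formed in BALB/c nude mice by 5000000 A549 cells, a human lung adenocarcinoma line. In the HIF1A-AS3 overexpression group (n = 3) the cells had been infected with the lentivirus pLV-CMV-HIF1A-AS3-EGFP-Neo, in which the CMV promoter drives the human antisense RNA HIF1A-AS3. In the vector control group (n = 3) they had been infected with the lentivirus pLV-CMV-EGFP-Neo, so the cells of both groups carried EGFP and the neomycin resistance gene. Nude mice lack a thymus and mature T cells but keep macrophages and other innate immune cells, and the age of the mice is not given in the labels. Each cell population was a stable line, and the labels do not say whether it came from a single clone or whether the 3 tumours of a group grew in separate mice, so a p-value here reflects only how these tumours vary, which may be technical.

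Counts were assigned to mouse genes, so the values describe host cells in the tumour together with any human RNA assigned to a mouse gene, a part that was not measured. The libraries held 4272525 to 4769157 estimated counts in overexpression tumours and 4167784 to 4262778 in control tumours. Levels are given as CPM, the counts of a gene scaled to a common library size, with TMM factors, which correct library totals for differences in composition. These factors were 0.742, 1.02 and 1.02 in overexpression replicates 1 to 3, against 1.07 to 1.10 in controls, so the scaling raised overexpression replicate 1 relative to the other tumours. Across all genes tested, overexpression replicate 2 was closer to the controls (mean Pearson's r of log2 CPM 0.951) than to the other overexpression tumours (0.908). By the same measure overexpression replicate 3 was about as close to the controls (0.923) as to its own group (0.920), and overexpression replicate 1 was further from the controls (0.903) than from its own group (0.912). No pair of libraries differed by counting error alone, the closest, controls 1 and 3, differing by 2.06 times the sampling variance. This measure cannot tell whether separately made libraries came from the same tumour.

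The comparison of overexpression with control tumours asks whether the host's lysosomal genes differed when the tumour cells overexpressed HIF1A-AS3. None of the 10 genes passed the threshold, an adjusted p below 0.05 in edgeR's quasi-likelihood test, and none had an unadjusted p below 0.05. Over all genes tested, 0.0158% passed the threshold and 6.29% had an unadjusted p below 0.05. DESeq2 and limma-voom also called 0 of the 10. The adjusted p values ranged from 0.71 to 0.97. The log2 fold change was positive in 6 genes and negative in 4, where 49.4% of all genes tested were negative. The median log2 fold change of the 10 was 0.07 and that of all genes tested was 0.01, and with library totals in place of TMM these medians were -0.20 and -0.21, and 9 of the 10 genes and 73.1% of all genes tested were negative. Here, as throughout, fewer cells of a type and less RNA per cell cannot be told apart in RNA of whole tumours.

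**Figure D1:**
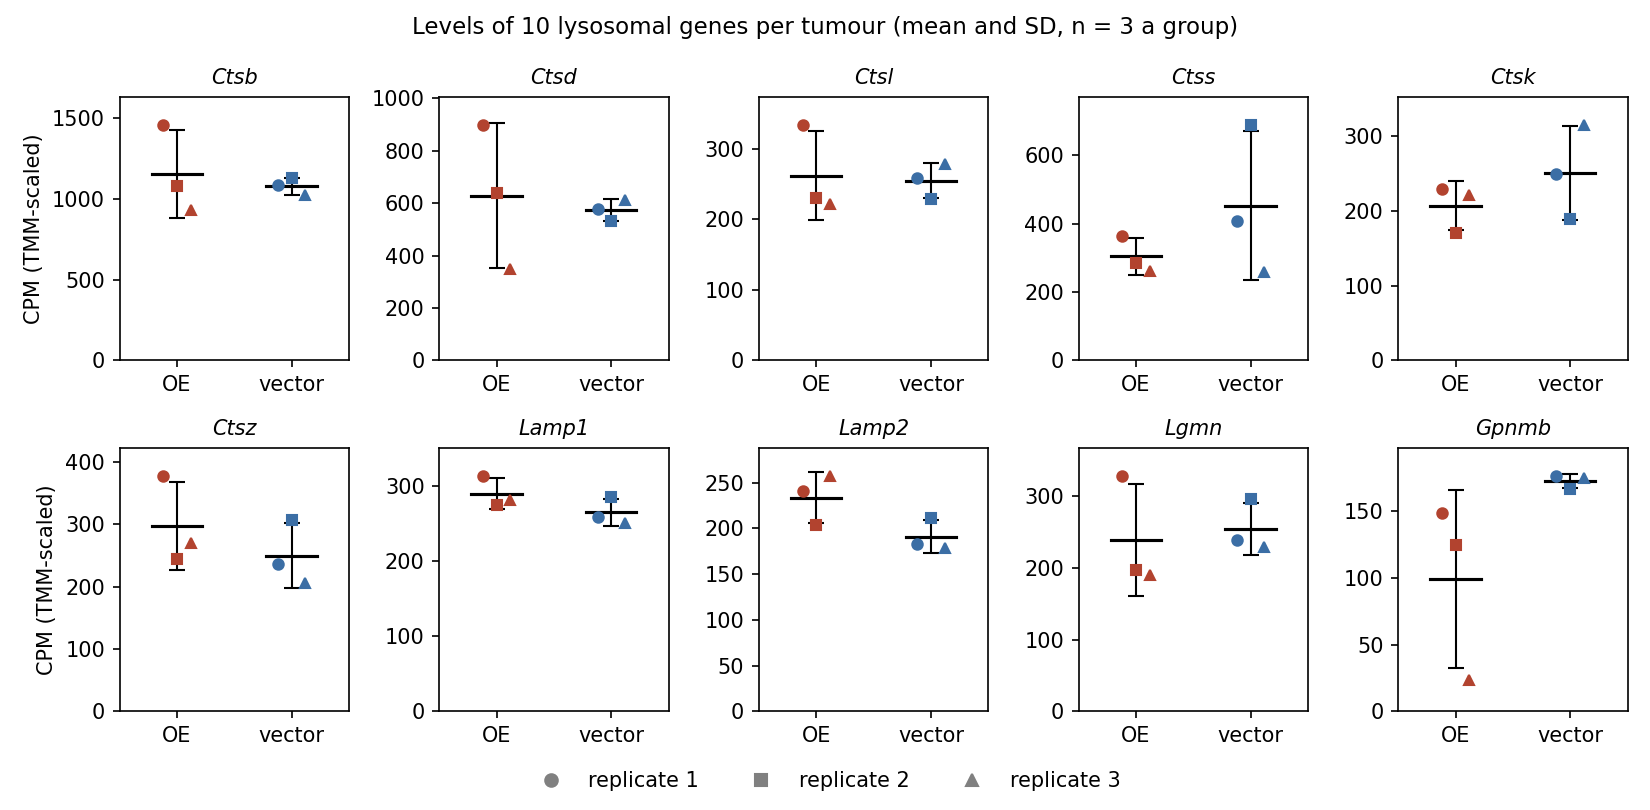
CPM of each gene (y axis, from 0, with its own scale per gene) in the 3 HIF1A-AS3 overexpression (OE, red) and the 3 vector control (blue) tumours; symbols give the replicate number, the line the mean and the bar 1 SD. The groups overlap in 9 genes, and in Gpnmb the overexpression tumours, at 23.2 to 149 CPM, lie below the controls, at 167 to 177 CPM.

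Gpnmb (ENSMUSG00000029816.11), a glycoprotein of late endosomes, lysosomes and melanosomes that macrophages raise under lysosomal stress, had the most negative fold change of the 10. Its estimated counts were 525, 591 and 101 in overexpression replicates 1 to 3 and, in the same order, 817, 737 and 816 in the controls. On the CPM scale these were 149, 125 and 23.2 in overexpression tumours and 177, 167 and 175 in control tumours. The controls lay close together, and overexpression replicate 3 lay far below the other 5 tumours. Its 95% counting interval (exact Poisson) was 18.9 to 28.2 CPM, which covers counting error only. With TMM, the intervals of the highest overexpression tumour, 137 to 162 CPM, and of the lowest control, 155 to 179 CPM, overlapped. Such an overlap is not a test of the difference, which was not tested for single tumours. With library totals in place of TMM, the highest overexpression tumour (replicate 2) was at 127 CPM and the lowest control (replicate 2) at 177 CPM.

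Gpnmb averaged 99.0 ± 66.7 CPM in overexpression tumours and 173 ± 5.41 CPM in control tumours (SD, n = 3 each). The fitted log2 fold change was -0.81 (standard error 0.56), for an edgeR adjusted p of 0.74 and an unadjusted p of 0.19, and the 95% interval of the fold ran from 0.230 to 1.42. The spread between overexpression tumours, an SD of 1.47 in log2 CPM, was larger than that of 97.0% of all genes tested, and the spread between controls, 0.05, was larger than that of 5.44%. Without overexpression replicate 3 the log2 fold change was -0.34, at an adjusted p of 0.64 in edgeR.

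Gpnmb was the only 1 of the 10 genes in which the groups did not overlap in CPM. Over all genes tested the groups did not overlap in 13.2%, and in 6.36% the overexpression tumours were below, so 1 in 10 is near the background. With library totals in place of TMM, Ctsb, Lgmn and Gpnmb had all 3 overexpression tumours below all 3 controls, where 12.8% of all genes tested did.

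Ctss (ENSMUSG00000038642.11) encodes cathepsin S, a cysteine protease of antigen-presenting cells that trims the invariant chain from MHC class II molecules and stays active near neutral pH. Its levels were 365, 286 and 262 CPM in overexpression replicates 1 to 3, against 409, 689.9 and 259 CPM in controls 1 to 3. The overexpression tumours lay close together, and the controls spanned a 2.66-fold range that enclosed all of them. Ctss averaged 304 ± 54.1 CPM in overexpression tumours and 453 ± 219 CPM in control tumours (SD, n = 3 each), with a fitted log2 ratio of -0.57 (standard error 0.35) that did not pass the threshold (edgeR adjusted p 0.72). The SD of log2 CPM between controls, 0.71, was larger than that of 94.4% of all genes tested. The difference rested on control replicate 2: without it the log2 fold change was -0.13, and without control replicate 3 it was -0.85. Its unadjusted p was 0.033 with library totals only and 0.032 without control replicate 3, where edgeR gave adjusted p values of 0.73 and 1.00.

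Ctsk (ENSMUSG00000028111.5) encodes cathepsin K, a collagen-degrading protease best known from osteoclasts and also made by activated fibroblasts. It measured 229.8, 170.3 and 222 CPM in overexpression replicates 1 to 3, against 249.5, 189.8 and 316 CPM in controls 1 to 3. Overexpression replicate 2 was the lowest of the 6 tumours and control replicate 3 the highest, with the other 4 between them. The means were 207 ± 32.3 CPM in overexpression tumours and 252 ± 63.0 CPM in control tumours (SD, n = 3 each), which the fit put at a log2 fold change of -0.28 (standard error 0.24, edgeR adjusted p 0.78). Without control replicate 3 the log2 fold change was -0.08.

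The broadly expressed cysteine proteases Ctsb and Ctsl had log2 fold changes near 0. Ctsb (ENSMUSG00000021939.9), which cuts within proteins and removes dipeptides from their ends, had 5137, 5116 and 4047 estimated counts in the 3 overexpression tumours (replicates 1 to 3), against 5011, 4991 and 4767 in the controls. In CPM these were 1459, 1078 and 931 in overexpression tumours and 1084, 1129 and 1024 in control tumours. Overexpression replicates 1 and 3 thus lay on either side of the controls. The log2 fold change of Ctsb was 0.10 (standard error 0.24), for an edgeR adjusted p of 0.93, and the 95% interval of the fold ran from 0.723 to 1.59.

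Ctsl (ENSMUSG00000021477.10), an endopeptidase, measured 334, 229.9 and 222 CPM in overexpression replicates 1 to 3, against 258, 228 and 278 CPM in controls 1 to 3, with overexpression replicate 1 above and replicate 3 below all controls. Its log2 fold change was 0.04 (standard error 0.22), for an edgeR adjusted p of 0.97. The sign of both genes turned on overexpression replicate 1 and on the scaling. Without that library the log2 fold change was -0.14 for Ctsb and -0.21 for Ctsl, and with library totals only it was -0.16 for Ctsb and -0.23 for Ctsl. Ctsl was also at -0.03 without control replicate 2.

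Ctsd (ENSMUSG00000007891.17) encodes cathepsin D, the aspartic protease of the lysosome. Overexpression replicates 1, 2 and 3 held 3164, 3035 and 1510 estimated counts, and controls 1, 2 and 3 held 2675, 2349 and 2847. Its levels were 899, 639.6 and 347 CPM in overexpression tumours and 578, 531 and 612 CPM in control tumours. Overexpression replicates 1 and 2 were above every control and replicate 3 below every control, a 2.59-fold range within the overexpression group against 1.15-fold within controls. The means were 629 ± 276 CPM in overexpression tumours and 574 ± 40.4 CPM in control tumours (SD, n = 3 each). The log2 fold change was 0.13 (standard error 0.34), for an edgeR adjusted p of 0.93. It was -0.25 without overexpression replicate 1, 0.42 without overexpression replicate 3 and -0.16 with library totals only.

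Ctsz (ENSMUSG00000016256.11) encodes cathepsin Z, a carboxypeptidase also called cathepsin X. It measured 378, 244 and 270.0 CPM in overexpression replicates 1 to 3, against 236, 308 and 206 CPM in controls 1 to 3. Only overexpression replicate 1 was above the range of the controls with TMM, and with library totals only it was within that range. The log2 fold change was 0.25 (standard error 0.24), for an edgeR adjusted p of 0.80, and with library totals only it was -0.01. Without overexpression replicate 1 it was 0.0097, and with any other single library left out it lay between 0.13 (without control replicate 3) and 0.43 (without control replicate 2).

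Lgmn (ENSMUSG00000021190.15), which cuts after asparagine and processes cathepsins, measured 328, 197 and 191 CPM in overexpression replicates 1 to 3, against 238.5, 295 and 229 CPM in controls 1 to 3. With TMM, overexpression replicate 1 was above all controls and replicates 2 and 3 were below all of them. With library totals only, all 3 were below all controls, at a log2 fold change of -0.37. The TMM log2 fold change of Lgmn was -0.09 (standard error 0.26), for an edgeR adjusted p of 0.94. It was 0.03 without overexpression replicate 2, 0.05 without overexpression replicate 3 and 0.03 without control replicate 2. Without overexpression replicate 1 it was -0.42, at an unadjusted p of 0.033 (edgeR adjusted p 1.00).

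Lamp1 and Lamp2, the heavily glycosylated proteins of the lysosomal membrane, had the smallest range over the 6 tumours with TMM, and with library totals only the smallest range was that of Ctsb, 1.26-fold. Lamp1 (ENSMUSG00000031447.8) measured 314, 275 and 282 CPM in overexpression replicates 1 to 3, against 259, 286 and 251 CPM in controls 1 to 3. Its highest tumour was 1.25 times its lowest, and the groups overlapped. The log2 fold change was 0.13 (standard error 0.17), for an edgeR adjusted p of 0.85, and the 95% interval of the fold ran from 0.833 to 1.43, the narrowest of the 10. This log2 fold change was 0.035 without overexpression replicate 1 and -0.11 with library totals only.

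Lamp2 (ENSMUSG00000016534.16), whose splice forms also serve in chaperone-mediated autophagy, measured 241, 203 and 258 CPM in overexpression replicates 1 to 3, against 183, 212 and 178 CPM in controls 1 to 3. Overexpression replicates 1 and 3 were above all controls, and replicate 2 was within their range. The means were 234 ± 27.7 CPM in overexpression tumours and 191 ± 18.2 CPM in control tumours (SD, n = 3 each). The log2 fold change of 0.29 (standard error 0.18, edgeR adjusted p 0.71) was the most positive of the 10. It was 0.06 with library totals only, and with each single library left out it stayed between 0.21 and 0.39.

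**Figure D2:**
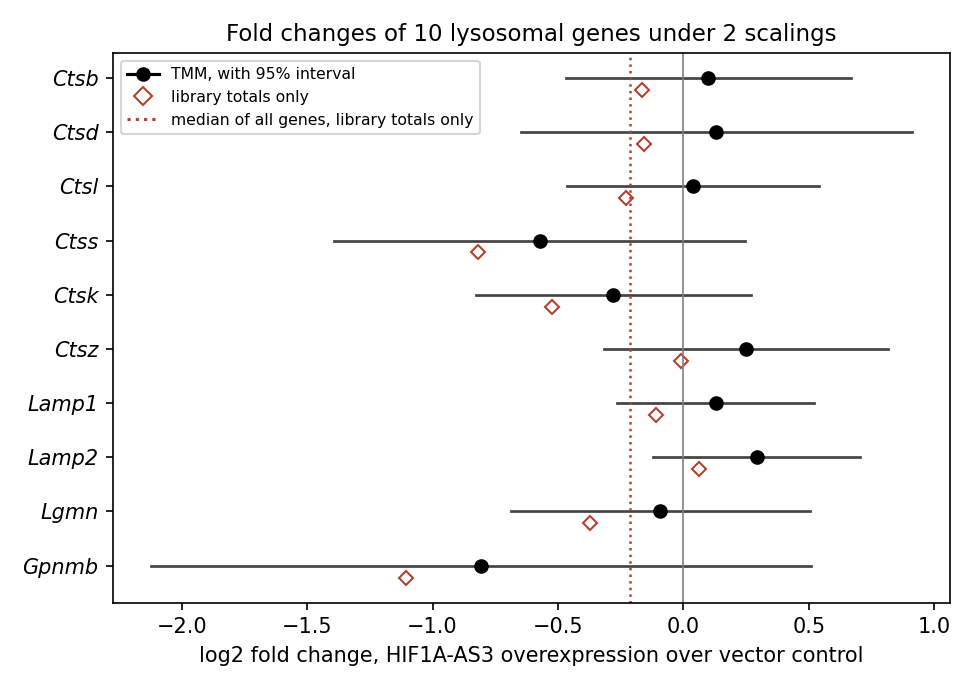
Log2 fold change of each gene, HIF1A-AS3 overexpression over vector control (x axis), with TMM scaling (black, bar 95% interval) and with library totals only (open diamonds); the dotted line is the median of all genes tested with library totals only, -0.21. All 10 intervals include 0, and the diamonds lie to the left of the black points by about the shift of all genes.

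The 10 genes did not all follow the same order of tumours in either group. With TMM, the overexpression replicates ran 1, 2, 3 from highest to lowest in 6 of the 10 genes, against 13.7% of all genes tested. The order 1, 3, 2 held in 3 genes, against 20% of all genes tested. With library totals only, these orders held in 3 genes (5.06% of all genes tested) and 1 gene (8.36%). Overexpression replicate 3 was the lowest of the 6 tumours for Ctsb, Ctsd, Ctsl, Lgmn and Gpnmb and the highest for Lamp2. It was thus lowest for 5 of the 10 genes with TMM and for 6 with library totals only, where it was lowest for 19.1% and 10.7% of all genes tested. In that tumour the deviation from the control mean in log2 CPM ranged from -2.87 for Gpnmb and -0.72 for Ctsd to 0.13 for Ctsz and 0.43 for Lamp2.

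Overexpression replicate 1 was the highest of the 6 tumours for 6 of the 10 genes with TMM, against 26.7% of all genes tested, but for 0 of the 10 with library totals only, against 9.12% of all genes tested. With library totals only it was the lowest of the 6 tumours for 3 of the 10 genes, against 59.2% of all genes tested. Its place in this order therefore depends on the scaling, which moves all genes of a library together. With TMM, the median deviation from the control mean in overexpression replicate 1 was 0.36 in log2 CPM for the 10 genes and -0.05 for all genes tested. This tumour was then above all controls for 7 of the 10 genes, against 35.1% of all genes tested. Overexpression replicate 2 lay within the range of the controls for 6 of the 10 genes, against 2 in overexpression replicate 1 and 4 in overexpression replicate 3. Over all genes tested the shares within that range had the same order, at 43.9% in overexpression replicate 2, 26.1% in replicate 1 and 32.3% in replicate 3.

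Among the controls the genes fell into opposite orders. Control replicate 2 was highest and replicate 3 lowest for Ctsb, Ctss, Ctsz, Lamp1, Lamp2 and Lgmn, an order found in 25.1% of all genes tested. Control replicate 3 was highest and replicate 2 lowest for Ctsd, Ctsl and Ctsk, an order found in 25.3%. Gpnmb was highest in control replicate 1. Both scalings gave these same orders. The contrast was widest between Ctss and Ctsk: control replicate 2 deviated from the control mean by 0.72 for Ctss and by -0.38 for Ctsk in log2 CPM, and control replicate 3 by -0.69 for Ctss and by 0.36 for Ctsk.

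The SD of log2 CPM was larger between overexpression tumours than between controls in 8 of the 10 genes, where it was larger in 76.4% of all genes tested. The exceptions were Ctss and Ctsk. The median SD of the 10 genes was 0.33 in overexpression tumours and 0.14 in control tumours, and over all genes tested it was 0.37 and 0.20.

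**Figure D3:**
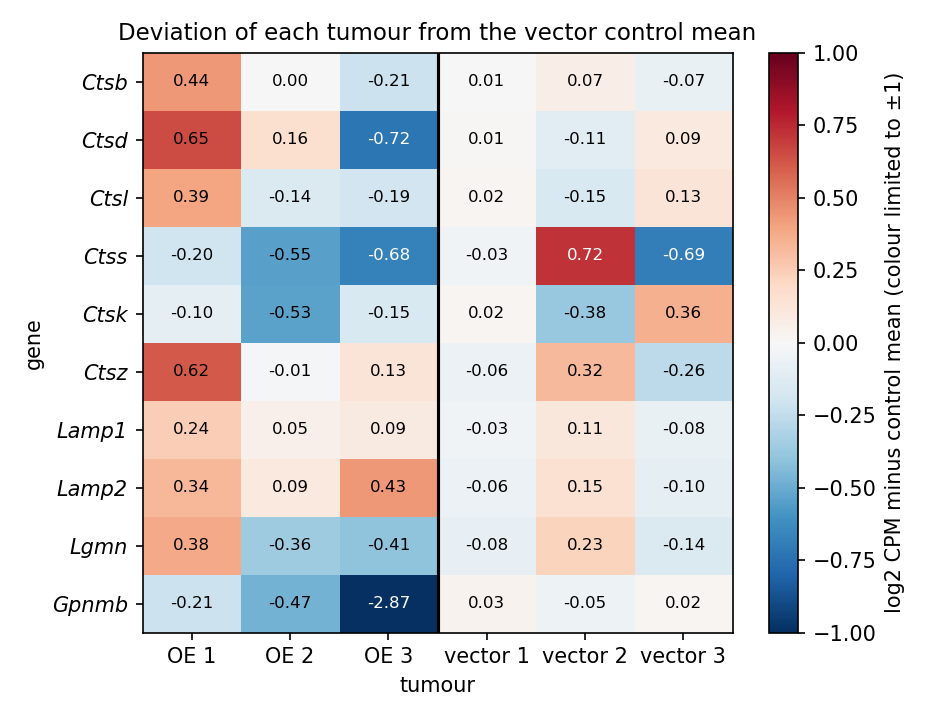
Log2 CPM of each gene (rows) in each tumour (columns, OE for HIF1A-AS3 overexpression and vector for control) minus the mean of the 3 controls, printed in each cell and coloured red above and blue below the control mean, with colours limited to ±1. Overexpression replicate 3 holds the lowest value, -2.87 for Gpnmb, beside 0.43 for Lamp2, and control replicates 2 and 3 are opposite in Ctss and Ctsk.

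The share of a gene in the summed estimated counts of the 10 does not depend on how libraries are scaled. It compares the same gene between tumours and not levels between genes, for which gene lengths were not used here. Gpnmb made up 3.17%, 3.61% and 0.773% of the sum in overexpression replicates 1 to 3, against 4.81%, 4.13% and 4.97% in controls 1 to 3, without overlap between the groups. Per count of Ctsd, Gpnmb had 0.166, 0.195 and 0.0669 counts in overexpression tumours and 0.305, 0.314 and 0.287 in control tumours. Both measures use the same Gpnmb counts as the CPM values and add no independent evidence.

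Ctsb held 31.1%, 31.3% and 31.0% of the sum in overexpression replicates 1 to 3, against 29.5%, 28.0% and 29.0% in controls 1 to 3. The groups did not overlap in the shares of Gpnmb and Ctsb. How often this happens for shares of other genes was not computed, so no background stands beside this result. A share also moves with every other gene of the sum. With library totals in place of TMM, Ctsb itself was lower in overexpression tumours (947 to 1099 CPM) than in controls (1118 to 1197 CPM). With TMM its groups overlapped. Ctss made up 7.78%, 8.31% and 8.70% in overexpression tumours and 11.1%, 17.1% and 7.34% in control tumours, where only control replicate 3 was below the overexpression tumours. The shares of the other 7 genes overlapped between the groups, as did those of Ctss.

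The ratio of Lamp2 to Lamp1 counts was 0.766, 0.740 and 0.915 in overexpression replicates 1 to 3, against 0.706, 0.741 and 0.708 in controls 1 to 3. Overexpression replicate 3 stood above the other 5 tumours. The ratio of Ctsd to Ctsb counts, 0.616, 0.593 and 0.373 in overexpression tumours and 0.534, 0.471 and 0.597 in control tumours, was lowest in the same tumour. So was that of Gpnmb to Ctsb, at 0.0250. The ratios of Ctsk, Ctss and Ctsl to Ctsb in overexpression replicate 3, 0.238, 0.281 and 0.238, lay within the range of the other 5 tumours. Ratios of other gene pairs were not computed as a background.

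**Figure D4:**
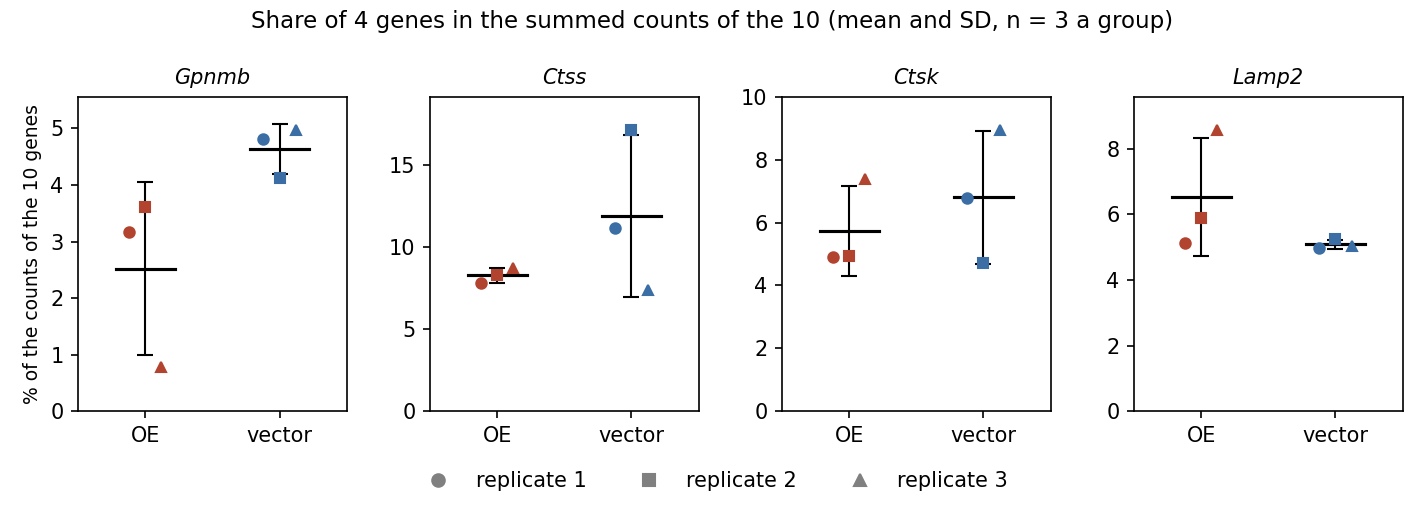
Share of Gpnmb, Ctss, Ctsk and Lamp2 in the summed estimated counts of the 10 genes (y axis, %, from 0, with its own scale per gene) in HIF1A-AS3 overexpression (OE, red) and vector control (blue) tumours; symbols give the replicate number, the line the mean and the bar 1 SD. The Gpnmb shares, 0.773% to 3.61% in overexpression tumours and 4.13% to 4.97% in controls, do not overlap, while those of Ctss and Ctsk do.

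Of the 60 values behind these results, 34 were not whole numbers to within 0.001, as happens when an estimator divides reads between genes. Each of the 10 genes had such a value in at least 1 library, as had 77.8% of all genes tested. How much of each value came from shared reads was not tested.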

How the data were processed

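RNA of 6 tumours was sequenced as 1 library each, per the labels' protocols. The authors deposited a table of estimated counts per mouse gene, unscaled, per the file header. The submitters' processing notes name, without their roles, the build mm10 and the tools DESeq2, edgeR, featureCounts 2.0.6, HISAT2 2.2.1 and Trimmomatic 0.39; the table's name points to salmon (version: not given in the sources used here). All 6 columns were matched to tumours by name.

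Estimated counts were rounded and analysed in R 4.3.3 with edgeR 4.0.16: filterByExpr at its defaults (12637 genes, 99.5% of counts), TMM, and the robust quasi-likelihood F-test on group, Benjamini-Hochberg adjusted over all genes tested. Standard errors are the log2 fold change over the square root of F, and 95% intervals use the test's degrees of freedom. Log2 CPM used a prior count of 2. A count of 0 would allow 0.632 to 0.852 CPM (3 counts), by counting error only. Alternatives used DESeq2 1.42.0, limma-voom (limma 3.58.1), other scalings and filters, a block by replicate number and each library left out. The fit was also run on simulated counts as a check of the code. That check set no limit on the share of false calls among the genes called.

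The 10 genes, all named, were chosen with earlier results of these data known, so no test was made over the list. Lists of other lysosomal genes and host cell markers drawn up by symbol were not analysed here, because the reference tables pair human IDs only; gene positions and sequences were not used here, and the host tissue was not checked against its markers.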

Additional observations from a re-analysis of the deposited data

How the results depend on the processing

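None of the 10 genes passed the threshold in any of the 16 alternatives, the lowest adjusted p being 0.27, for Lamp2 without overexpression replicate 2. DESeq2 on the genes edgeR tested was chosen after the data were seen. Ctss, Ctsk and Gpnmb stayed negative and Lamp2 positive throughout, Gpnmb between -1.26 and -0.34. The median log2 fold change of the 10, 0.07, was -0.20 with library totals only, which moved the median of all genes to -0.21, and ranged from -0.23 (without overexpression replicate 1) to 0.15 with 1 library left out. The sign turned with library totals only for Ctsb (-0.16), Ctsd (-0.16), Ctsl (-0.23), Ctsz (-0.011) and Lamp1 (-0.11), and without overexpression replicate 1 for Ctsb (-0.14), Ctsd (-0.25) and Ctsl (-0.21). With 1 library left out, Ctsb ranged from -0.14 to 0.23, Ctsd from -0.25 to 0.42, Ctsl from -0.21 to 0.15 and Lgmn from -0.42 (without overexpression replicate 1) to 0.047 (without overexpression replicate 3). Lgmn was 0.03 without overexpression replicate 2 or control replicate 2, and Ctsl was -0.03 without control replicate 2. The labels do not say that replicate numbers mark pairs, and same-numbered libraries correlated at -0.09, -0.34 and -0.10 in their deviations from group means (other pairs -0.16 to 0.25). No library correlated best with its own number. With a replicate block 0 of the 10 genes passed and their median was 0.03. The genes called over all those tested went to 0 with the block, against 2 without it. The count over all genes was 2 in edgeR, 29 in DESeq2 on all rows, 28 in DESeq2 on the filtered genes, 7 in limma-voom, 4 with library totals, 14 with no filter and 0 to 14 with 1 library left out. Depth gave each gene at least 101 counts in every library, a count whose 95% Poisson interval is 82.3 to 122.7.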
